A study of Mus musculus with 2 samples.

Results

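Primary chondrocytes of control and *Myl3*-KO mice were examined, *Myl3* being the gene of myosin light chain 3. The genes studied were the amino acid transporter genes of 6 solute carrier families (Slc1, Slc3, Slc6, Slc7, Slc36 and Slc38). They were taken as every row of the deposited gene table whose symbol is one of these family names followed by the letter a and a member number, which gave 61 of the 22156 rows. The cells came from rib cartilage of newborn mice and were grown as a monolayer in serum-containing medium without treatment. There was 1 library from control mice, whose genotype the labels give as WT, and 1 library from *Myl3*-KO mice, in which Cre driven by the *Col2a1* promoter deletes a floxed *Myl3*. The study's methods describe the controls as *Myl3* flox/flox littermates without Cre and keep all mice on the C57BL/6 J background, and how many animals went into each library was not given in the sources used here. The libraries held 17612434.91 (control) and 13477976.98 (*Myl3*-KO) expected counts, the estimated number of reads of each gene. Counts per 1000000 counts of a library are given as CPM, and 3 counts, taken as the floor, equal 0.170 and 0.223 CPM. Wherever a pair of values follows, the control comes first and *Myl3*-KO second.

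Cells take up amino acids through carriers that differ in substrate and in driving force. Slc1 members carry glutamate and small neutral amino acids with sodium, and Slc6 members carry neurotransmitters, taurine, creatine and glycine. Some Slc36 members work with protons, and Slc38 members (SNATs) carry glutamine and other small neutral amino acids. The Slc3 proteins are heavy chains that bring light chains of the Slc7 family to the membrane, where these exchange one amino acid for another, while other Slc7 members are uniporters of cationic amino acids. Transcription of several of these genes is raised by the factor ATF4 when amino acids run short, and the pool they maintain is read by the mTORC1 kinase complex at the lysosome.

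Of the 61 genes, 32 had at least 10 counts over both libraries and were tested. A further 24 were listed at 0 counts in both libraries, which allows up to 0.170 and 0.223 CPM. They include *Slc1a1* and *Slc1a6* among the glutamate carriers, *Slc6a3*, *Slc6a11*, *Slc6a13*, *Slc6a14*, *Slc6a15*, *Slc6a16*, *Slc6a18*, *Slc6a19*, *Slc6a20a* and *Slc6a21*, *Slc7a8*, *Slc7a9*, *Slc7a10*, *Slc7a12*, *Slc7a13* and *Slc7a14*, *Slc36a2*, and *Slc38a3*, *Slc38a5*, *Slc38a8* and *Slc38a11*. Of these, *Slc6a3* is the dopamine carrier, and *Slc6a19* and *Slc7a9* are carriers of kidney and gut. The other 5 had under 10 counts, with 1 and 0 for *Slc1a7*, *Slc7a15* and *Slc36a3*, 2 and 1 for *Slc6a12*, and 1 and 2 for *Slc6a5*. One tested gene, *Slc7a6os*, is named for lying opposite *Slc7a6* and is not described as a transporter. It had 830 and 600 counts, with a log2 ratio of -0.08.

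Each tested gene was compared between the libraries with a two-sided exact binomial test on its counts, with Benjamini-Hochberg adjustment over all 12431 genes tested. A gene was called where the adjusted p was under 0.05 and the CPM ratio at least 1.5-fold. The test sets the reads of one library against those of the other, not the genotypes against each other, since neither genotype had a replicate, and its intervals cover counting error only. Ratios are log2 of *Myl3*-KO over control CPM, with 95% counting intervals.

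Among the 32 transporter genes tested, 2 were called higher in *Myl3*-KO (*Slc3a1* and *Slc7a7*) and 1 lower (*Slc1a3*). Over all genes tested, 3.14% were called higher and 0.925% lower, and the transporter shares of 6.25% and 3.12% rest on 2 genes and 1 gene. Without the limit on the ratio, 9 of the 32 were higher beyond counting error (28.1%, against 18.6% of all genes) and 3 were lower (9.38%, against 16.8%). The 9 were *Slc3a1*, *Slc6a6*, *Slc6a8*, *Slc6a9*, *Slc7a7*, *Slc38a1*, *Slc38a6*, *Slc38a7* and *Slc38a10*, and the 3 were *Slc1a3*, *Slc7a1* and *Slc7a6*. Among the 9, *Slc3a1*, *Slc6a9* and *Slc7a7* overlap other counted genes and *Slc38a6* shares sequence with *Noct*, so their counts are less certain. Under TMM scaling, 1940 of all genes were higher and 2473 lower, in place of 2307 and 2090, with the transporter counts still 9 and 3. The median ratio of the 32 was 0.09, beside 0.02 over all genes tested. None of these calls allows for variation between cultures. When a coefficient of variation of 0.1 between cultures was assumed in edgeR's exact test, 0 of the 32 had an adjusted p under 0.05, beside 61 of all genes, and 3 (*Slc1a3*, *Slc3a1* and *Slc7a7*) had an unadjusted p under 0.05.

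**Figure D1:**
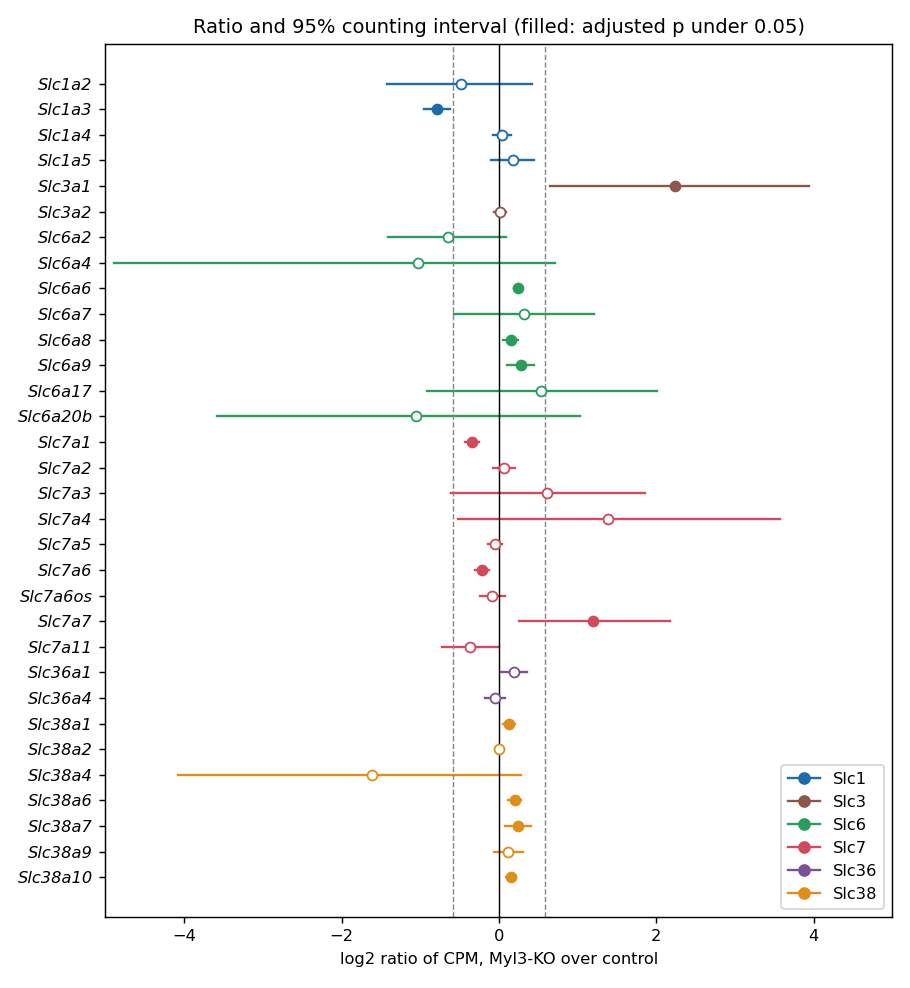
Log2 ratio of CPM, *Myl3*-KO over control, for the 32 transporter genes tested, coloured by family, with bars for the 95% counting interval, filled points for an adjusted p under 0.05 and dashed lines at 1.5-fold; counts under 3 were raised to 3. The filled points beyond the dashed lines are *Slc1a3* (-0.79), *Slc3a1* (2.24) and *Slc7a7* (1.20), and the last 2 have the wide bars of few counts.

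Levels were compared between genes by the deposited FPKM, which divides reads by gene length. The transporter genes together made up 0.302% and 0.310% of all counts, and their FPKM summed to 758.48 and 783.73. *Slc38a2*, the sodium-coupled carrier SNAT2 of glutamine and alanine, had the highest FPKM of the set in both libraries (174.13 and 173.80) and made up 23.0% and 22.2% of that sum. Next came *Slc3a2*, the heavy chain 4F2hc, with FPKM of 118.19 and 125.02, and *Slc6a6*, the taurine carrier, with 65.81 and 78.65. These 3 genes held 47.2% and 48.2% of the summed FPKM. In all, 20 of the 61 genes were at 1 FPKM or more in both libraries, and 10 of them held the same rank in both. The light chains *Slc7a5* and *Slc7a6* were close in FPKM, with ratios of *Slc7a5* to *Slc7a6* of 0.991 and 1.13.

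**Figure D2:**
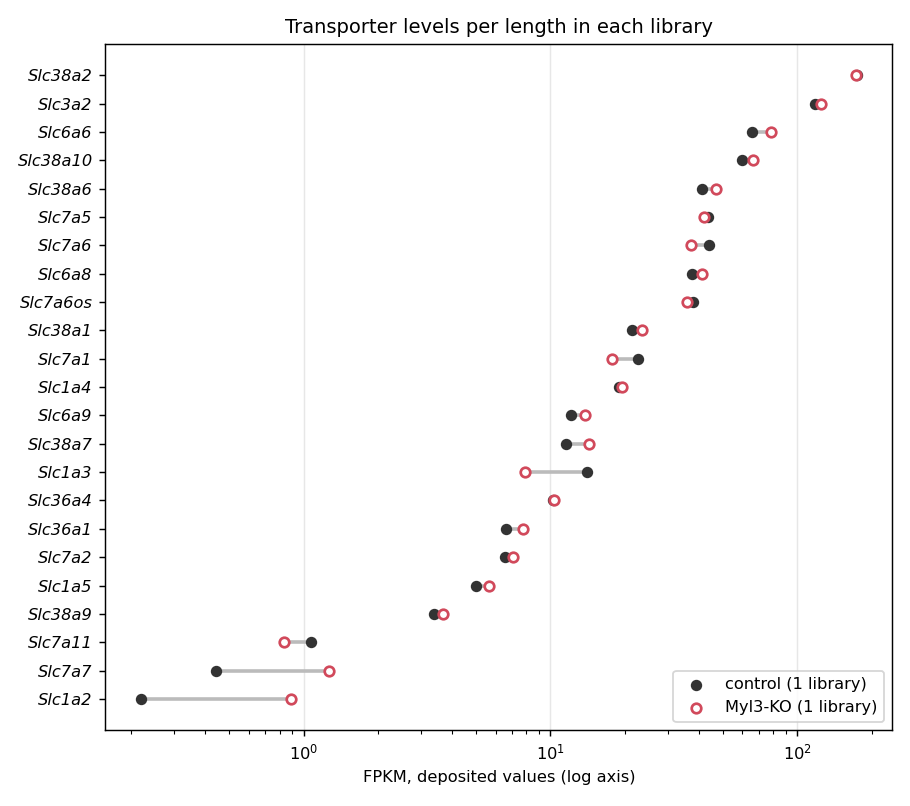
Deposited FPKM on a log axis in the control (filled) and *Myl3*-KO (open) for the transporter genes with a mean FPKM of at least 0.5. *Slc38a2* stands at the top at 174.13 and 173.80, and of the genes above 1 FPKM in both libraries *Slc1a3* has its points farthest apart, at 14.07 and 7.91.

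In the Slc1 family, 4 of 7 members were tested and *Slc1a3* stood apart. *Slc1a3* (ENSMUSG00000005360, chromosome 15 from 8634124 to 8710764, minus strand, GRCm38) encodes EAAT1, also called GLAST, a high-affinity glutamate and aspartate carrier best known from glia. It had 1001 and 444 counts (56.8 and 32.9 CPM). It was lower in *Myl3*-KO, with a log2 ratio of -0.79 (-0.95 to -0.62, exact binomial test, adjusted p = 3.85e-21), a 1.73-fold difference. Of the 10485 genes with at least 100 counts, 0.315% had a lower ratio. With the assumed variation of 0.1, its adjusted p in edgeR's exact test was 0.0618. Of the glial and neuronal markers, *Sox10* was listed at 0 in both libraries, *Gfap* had 2 and 3 counts, and *Tubb3* had 175 and 138 counts, a ratio of 0.04 that did not pass the test. In a bulk library, fewer cells of a type and less RNA per cell cannot be told apart.

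The neutral amino acid carriers of the same family did not pass the test. *Slc1a4* (ASCT1, an exchanger of serine, alanine and cysteine) had 1309 and 1030 counts, a ratio of 0.04 (-0.08 to 0.16). *Slc1a5* (ASCT2, which carries glutamine) had 244 and 211 counts, a ratio of 0.18 (-0.10 to 0.45). The FPKM of *Slc1a3* relative to *Slc1a4* was 0.743 and 0.405, whereas that of *Slc1a4* relative to *Slc1a5* was 3.78 and 3.45. *Slc1a2*, the glutamate carrier GLT-1, had 31 and 17 counts, a ratio of -0.48 (-1.43 to 0.42), yet its FPKM was higher in *Myl3*-KO, at 0.22 and 0.89. The length implied by its count and FPKM was 8001 and 1417 bases, and its 12 annotated transcripts run from 193 to 11595 bases, so its level has no single value here. The summed counts of the Slc1 family had a ratio of -0.22 (-0.31 to -0.13), and 0.05 (-0.06 to 0.16) without *Slc1a3*.

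Both heavy chains were tested, at very different levels. *Slc3a2* had 3611 and 2786 counts, a ratio of 0.01 (-0.06 to 0.08) that changed sign under TMM and DESeq2 scaling. *Slc3a1* (ENSMUSG00000024131, chromosome 17 from 85028376 to 85064236) encodes rBAT, the heavy chain of the cystine and dibasic amino acid exchanger of kidney and gut. It had 4.59 and 16.56 counts (0.11 and 0.53 FPKM) and was higher in *Myl3*-KO, with a log2 ratio of 2.24 (0.65 to 3.95, exact binomial test, adjusted p = 0.00757). Its partner light chain *Slc7a9* was listed at 0 in both libraries. *Slc3a1* overlaps *Prepl*, on the opposite strand, from 85063470 to 85064236. *Prepl* had 1049.41 and 771.44 counts, and the summed counts of the pair had a ratio of -0.03. The strand setting of the counting was not given in the sources used here, so reads in the overlap cannot be assigned to one gene. In each library the counts of *Slc3a1* and *Prepl* are not whole but add to a whole number, as when shared reads are divided between genes. The *Slc3a1* count is then partly an estimated share, whose error the test and its interval do not cover.

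Of the Slc7 light chains that pair with *Slc3a2*, 3 had at least 100 counts in each library. *Slc7a5* (LAT1, an exchanger of large neutral amino acids such as leucine) had 2699 and 1995 counts, a ratio of -0.05 (-0.13 to 0.03), and overlaps *Gm20388* (807.71 and 560.82 counts). *Slc7a6* (y+LAT2, an exchanger of arginine for neutral amino acids) had 2706 and 1782 counts and was lower, with a log2 ratio of -0.22 (-0.30 to -0.13, exact binomial test, adjusted p = 7.24e-06). *Slc7a11* (xCT, which brings in cystine in exchange for glutamate) had 173.02 and 103.01 counts, a ratio of -0.36 (-0.73 to -0.0019) whose adjusted p was 0.108 by the exact binomial test. *Slc7a7* (y+LAT1, chromosome 14 from 54369442 to 54417780) is a close relative of *Slc7a6*. It had 16 and 28.05 counts and was higher, with a log2 ratio of 1.20 (0.26 to 2.18, exact binomial test, adjusted p = 0.0284), and 8.63% of the 1946 genes tested with under 100 counts had a higher ratio. It overlaps *Oxa1l* on the opposite strand, which had 1304 and 1067.95 counts, and the pair summed to a ratio of 0.12. In *Myl3*-KO the counts of this pair are not whole but add to a whole number. The *Slc7a7* count there is then also partly an estimated share, with an error that the test does not cover. The FPKM of *Slc3a2* relative to the sum of its light chains *Slc7a5*, *Slc7a6*, *Slc7a7*, *Slc7a8*, *Slc7a10* and *Slc7a11* was 1.33 and 1.53.

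Of the cationic amino acid uniporters, *Slc7a1* passed the test. *Slc7a1* (CAT1, the widespread arginine and lysine carrier, ENSMUSG00000041313, chromosome 5 from 148327410 to 148399904, minus strand) had 2849 and 1716 counts (162 and 127 CPM). It was lower, with a log2 ratio of -0.35 (-0.43 to -0.26, exact binomial test, adjusted p = 8.35e-14), short of the 1.5-fold limit, and 5.33% of the genes with at least 100 counts had a lower ratio. *Slc7a2* (CAT2) had 891 and 712 counts, a ratio of 0.06 (-0.08 to 0.21). *Slc7a3* (CAT3) had 12 and 14 counts. *Slc7a4*, a family member not counted here as a cationic uniporter, had 4 and 8. Neither *Slc7a3* nor *Slc7a4* passed the test. *Slc7a4* overlaps *P2rx6*, an ATP-gated channel gene with 147 and 228 counts, and the pair summed to a ratio of 1.03. The summed counts of the Slc7 family had a ratio of -0.16 (-0.21 to -0.12), and -0.10 (-0.15 to -0.05) without *Slc7a1*.

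In the Slc6 family, 8 of 21 members were tested, and the 3 with more than 500 counts in each library were all higher in *Myl3*-KO, each by less than 1.5-fold. *Slc6a6* (TauT, ENSMUSG00000030096, chromosome 6 from 91684053 to 91759066), the taurine carrier, had 7016 and 6330 counts. Its log2 ratio was 0.24 (0.19 to 0.29, exact binomial test, adjusted p = 1.28e-19), and 17.1% of the genes with at least 100 counts had a higher one. *Slc6a8*, the creatine carrier, had 2060 and 1747 counts, with a ratio of 0.15 (0.06 to 0.24, exact binomial test, adjusted p = 0.00697). *Slc6a9* (GlyT1), a glycine carrier, had 577.52 and 536.49 counts, with a ratio of 0.28 (0.10 to 0.45, exact binomial test, adjusted p = 0.00629). *Slc6a9* overlaps *Ccdc24* and *B4galt2* on the opposite strand, which had ratios of 0.46 and 0.29. The counts of *Slc6a9* and *Ccdc24* are also not whole but add to a whole number in each library. The proline carrier *Slc6a7* had 24 and 23 counts, the noradrenaline carrier *Slc6a2* 49 and 24, the serotonin carrier *Slc6a4* 8 and 2, *Slc6a17* 9 and 10, and *Slc6a20b* 8.16 and 2.81. None of these 5 passed the test, and *Slc6a20b* overlaps *Sacm1l*, which had 1509.84 and 1078.19 counts. The summed counts of the family had a ratio of 0.22 (0.18 to 0.26), and 0.16 (0.08 to 0.24) without *Slc6a6*.

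In the Slc36 family, *Slc36a1* (PAT1, a proton-coupled carrier of small neutral amino acids found on lysosomes and at the cell surface) had 616 and 537 counts. Its ratio was 0.19 (0.02 to 0.36), with an adjusted p of 0.0731 by the exact binomial test. *Slc36a4* (PAT4) had 1131 and 836 counts, a ratio of -0.05 (-0.18 to 0.08). Neither passed the test.

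The Slc38 family held 41.1% and 41.9% of the summed FPKM. *Slc38a2*, on chromosome 15 from 96687392 to 96699730, had 14187 and 10836 counts, which equal 806 and 804 CPM, and the interval of its log2 ratio ran from -0.04 to 0.03. Of the other 6 members tested, 4 were higher in *Myl3*-KO, none by 1.5-fold. *Slc38a1* (SNAT1, a glutamine carrier) had 2769 and 2314 counts, with a ratio of 0.13 (0.05 to 0.21, exact binomial test, adjusted p = 0.00751). *Slc38a10* had 4380 and 3719 counts, with a ratio of 0.15 (0.09 to 0.21, exact binomial test, adjusted p = 2.63e-05). *Slc38a7* (SNAT7, which moves glutamine out of lysosomes) had 637 and 577 counts, with a ratio of 0.24 (0.08 to 0.41, exact binomial test, adjusted p = 0.0128). *Slc38a6* had 2740.2 and 2405.66 counts, with a ratio of 0.20 (0.12 to 0.28, exact binomial test, adjusted p = 8.38e-06). Its annotated transcripts share 31.3% of their 31-base words, in reverse, with transcripts of *Noct*, which had 22030.33 and 17755.99 counts, so its count is uncertain.

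*Slc38a9*, the lysosomal carrier that senses arginine for mTORC1, had 529 and 440 counts, a ratio of 0.12 (-0.07 to 0.31) that did not pass the test. *Slc38a4* had 12 and 3 counts, with an interval of -4.08 to 0.28. The FPKM of *Slc38a2* was 8.13 and 7.41 times that of *Slc38a1*. Without *Slc38a2*, the summed counts of the family had a ratio of 0.16 (0.12 to 0.20), against 0.07 (0.04 to 0.10) with it. Both sums include *Slc38a6*, whose count is uncertain.

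**Figure D3:**
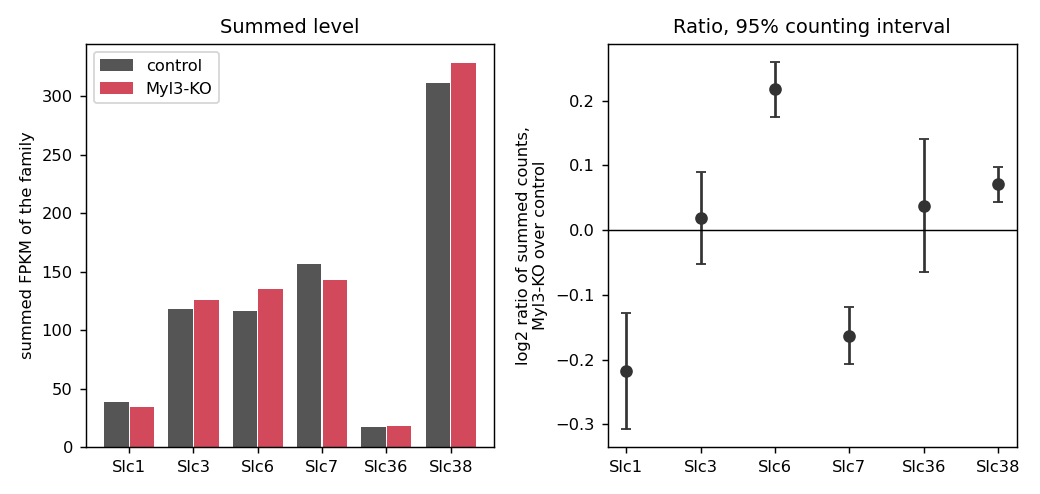
Left, summed FPKM of each family in the control (grey) and *Myl3*-KO (red); right, log2 ratio of the summed counts with its 95% counting interval. The Slc1 and Slc7 sums lie below 0 (-0.22 and -0.16), the Slc6 and Slc38 sums above it (0.22 and 0.07), and the intervals of Slc3 and Slc36 include 0.

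**Figure D4:**
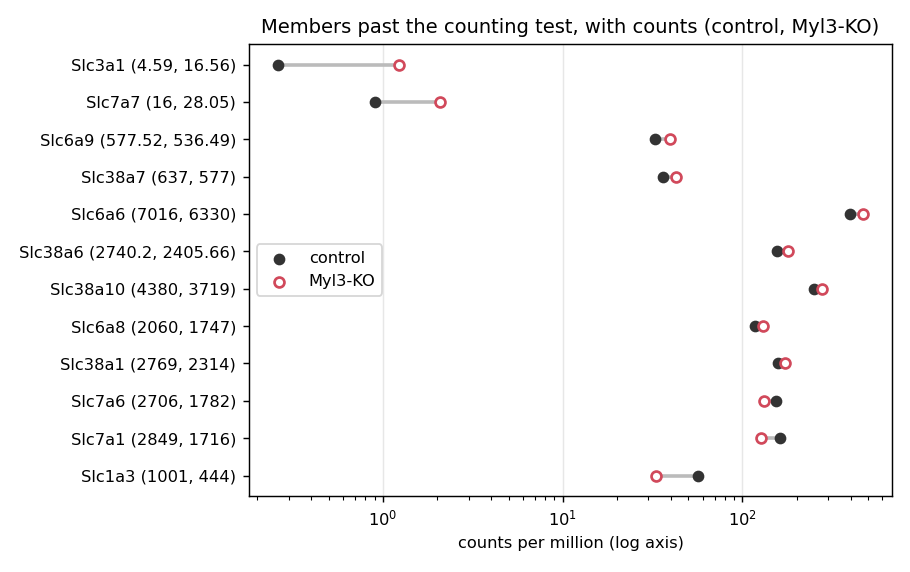
CPM on a log axis in the control (filled) and *Myl3*-KO (open) for the 12 transporter genes with an adjusted p under 0.05, with both counts beside each name. *Slc3a1* and *Slc7a7* lie far to the left of the others, at under 30 counts in each library.

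Several of the genes lie in clusters. Of the 61 genes, 23 lie within 500 kb of another member, and 8 of these 23 were tested, compared with 24 of the 38 that lie alone. On chromosome 15, *Slc38a1*, *Slc38a2* and *Slc38a4* lie within 500 kb of each other and had FPKM of 21.43, 174.13 and 0.17 in the control. On chromosome 14, *Slc7a7* lies within 500 kb of *Slc7a8*, which was listed at 0 in both libraries.

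The sequence before the start of 6 of these genes is shown, because transcription of several carriers is known to answer to stress pathways whose factors have short motifs. RefSeq promoters (GRCm38.p6, from 250 bases before to 50 after the start) matched 44 of the 61 genes, 22 of them tested. The runs give the 250 bases before the start, 5′ to 3′ on the gene's strand, with motif matches in capitals.
*Slc1a3*, chr15:8710808-8711057, minus strand: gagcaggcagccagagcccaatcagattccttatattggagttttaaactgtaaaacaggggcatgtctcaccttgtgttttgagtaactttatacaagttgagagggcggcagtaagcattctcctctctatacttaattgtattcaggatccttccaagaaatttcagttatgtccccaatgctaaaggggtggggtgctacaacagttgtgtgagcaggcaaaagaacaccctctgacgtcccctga
*Slc7a1*, chr5:148399905-148400154, minus strand: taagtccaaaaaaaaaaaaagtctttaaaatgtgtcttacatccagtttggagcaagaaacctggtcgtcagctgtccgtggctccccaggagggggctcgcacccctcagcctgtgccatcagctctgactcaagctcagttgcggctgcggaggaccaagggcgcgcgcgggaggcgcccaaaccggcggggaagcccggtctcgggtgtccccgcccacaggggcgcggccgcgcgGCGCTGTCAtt
*Slc7a6*, chr8:106168671-106168920, plus strand: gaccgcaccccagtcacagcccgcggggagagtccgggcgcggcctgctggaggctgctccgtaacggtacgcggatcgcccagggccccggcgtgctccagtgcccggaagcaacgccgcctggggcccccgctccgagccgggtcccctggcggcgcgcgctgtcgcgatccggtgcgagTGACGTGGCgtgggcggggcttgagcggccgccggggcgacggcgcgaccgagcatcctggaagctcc
*Slc7a11*, chr3:50443614-50443863, minus strand: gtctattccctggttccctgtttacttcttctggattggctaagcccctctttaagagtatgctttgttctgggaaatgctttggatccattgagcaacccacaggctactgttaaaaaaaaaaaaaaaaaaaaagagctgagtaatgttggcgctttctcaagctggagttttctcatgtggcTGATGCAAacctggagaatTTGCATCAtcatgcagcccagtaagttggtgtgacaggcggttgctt
*Slc38a2*, chr15:96699729-96699978, minus strand: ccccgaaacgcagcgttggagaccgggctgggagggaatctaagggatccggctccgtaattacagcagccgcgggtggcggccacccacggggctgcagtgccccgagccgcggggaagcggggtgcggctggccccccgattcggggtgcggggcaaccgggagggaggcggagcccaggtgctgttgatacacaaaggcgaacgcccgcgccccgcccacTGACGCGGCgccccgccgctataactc
*Slc38a10*, chr11:120151352-120151601, minus strand: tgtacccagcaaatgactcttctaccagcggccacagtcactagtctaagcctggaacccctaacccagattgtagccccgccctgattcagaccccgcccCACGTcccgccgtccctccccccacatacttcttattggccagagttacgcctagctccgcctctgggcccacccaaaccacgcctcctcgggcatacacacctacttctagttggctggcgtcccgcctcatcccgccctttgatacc
The capitals in *Slc7a11* are the amino acid response motif TGATGNAA, bound by ATF4, on each strand. Those in *Slc7a1*, *Slc7a6* and *Slc38a2* are TGACNNNGC, a core of the antioxidant response element, and in *Slc7a6* this match contains ACGTG, the core shared by hypoxia and lysosomal (CLEAR) elements. *Slc38a10* shows ACGTG on the opposite strand. *Slc1a3* has ACGTG only in the bases after its start, so its run holds no capitals.

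All 3 motifs were searched on both strands of the full windows. TGATGNAA was in 4 of the 44 genes, beside 4.51% of all 27025 genes with a promoter, and among those tested in *Slc1a4*, *Slc7a7* and *Slc7a11*. TGACNNNGC was in 8 of the 44, beside 14.0% of all genes, and among those tested in *Slc6a9*, *Slc7a1*, *Slc7a6*, *Slc36a1* and *Slc38a2*. ACGTG was in 16 of the 44, beside 21.8% of all genes. Among the 22 tested it was in 7, which were *Slc1a3*, *Slc3a2*, *Slc7a6*, *Slc7a7*, *Slc36a1*, *Slc38a7* and *Slc38a10*. The median share of G and C bases was 58.3% in promoters of tested members and 56% in those of untested members, beside 52.7% in all promoters. Of the 3 tested genes with TGATGNAA, *Slc7a7* was higher and *Slc1a4* and *Slc7a11* did not pass the test. The matches are descriptions of these windows.

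Genes of the same pathways were counted by the same test. Their lists were chosen together with the transporter set, with earlier results of these data known. The shares of each list beside all genes are therefore descriptions, not a test of the pathway. Of 24 amino acid response genes tested, 5 were called lower in *Myl3*-KO and none higher, beside 0.925% and 3.14% of all genes, and their median ratio was -0.21. Without the limit on the ratio, 12 of the 24 were lower and 1 was higher, shares of 50% and 4.17% beside 16.8% and 18.6% of all genes. Of the 5 called, the 4 with the lowest p were *Mthfd2* of mitochondrial folate metabolism (1939 and 980 counts, ratio -0.60), *Psph* of serine synthesis (1182 and 565, -0.68), the secreted hormone gene *Stc2* (98 and 39, -0.94) and the pseudokinase gene *Trib3* (103 and 43, -0.87). *Atf4* itself had 4495 and 2883 counts, with a ratio of -0.25 beyond counting error (exact binomial test, adjusted p = 2.47e-12), and was named after its values were seen. Of 31 lysosomal sensing and mTORC1 genes, none was called, 9 were higher (29.0%) and 5 lower (16.1%) beyond counting error, beside the same 18.6% and 16.8% of all genes, and the median was -0.02. Of 19 amino acid carriers of other families, none was called, 2 were higher (10.5%) and 1 was lower (5.26%) beyond counting error, and the median was 0.03. Of 15 cystine and glutathione genes, a list that also holds *Slc3a2* and *Slc7a11*, none was called, 1 was higher (6.67%) and 3 were lower (20.0%) beyond counting error, and the median was -0.07.

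**Figure D5:**
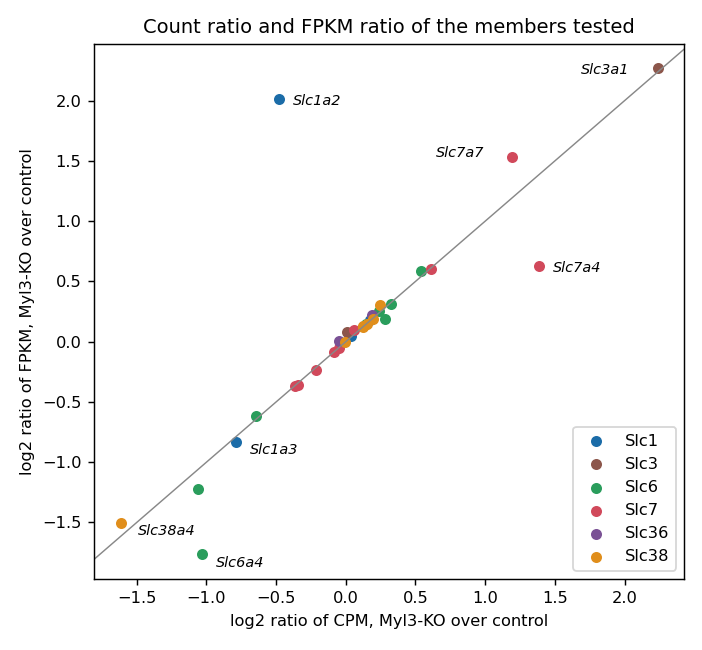
Log2 ratio of FPKM against log2 ratio of CPM, *Myl3*-KO over control, for the 32 transporter genes tested, coloured by family, with the diagonal of equal ratios. *Slc1a2* is far from the diagonal (-0.48 by CPM and 2.02 by FPKM), and the genes with many counts lie close to it.

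The labelled cell type was checked against its markers. Of 12 chondrocyte markers, *Acan*, *Matn1*, *Matn3*, *Hapln1* and *Cnmd* were listed at 0 in both libraries, *Col2a1* had 30 and 27 counts, and *Sox9* was lower in *Myl3*-KO (866 and 480 counts, ratio -0.47). The 12 summed to 58.3 and 46.1 CPM, while 10 fibroblast markers summed to 17176 and 19455 CPM. Most of the fibroblast sum was *Col1a2* (12017 and 14039 CPM), and *Thy1* was listed at 0 in both libraries. Of the 9 fibroblast markers tested, 2 were called higher (*Pdgfrb*, 0.71, and *Pdgfra*, 0.61) and 2 lower (*Dcn*, -1.64, and *Lum*, -1.36). Muscle (0.341 and 0.223 CPM), immune (5.06 and 4.67 CPM) and endothelial (0.397 and 0.890 CPM) markers were low, and erythroid markers were at or near 0. The part of these differences in the transporter values was not tested. *Myl3* was listed at 0 counts in both libraries and cannot check the labels.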

How the data were processed

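RNA sequencing of 1 control and 1 *Myl3*-KO culture of primary chondrocytes was analysed. The authors deposited expected counts, estimates of each gene's reads before any normalization, and FPKM values scaled by gene length and library and rounded to 2 decimals. The submitters' processing notes name the build GRCm 38 (mm 10), and the aligner, counting tool, annotation and strand setting were not given in the sources used here. The column named NC was read as the control, since its partner is named KO.

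CPM used the totals of the deposited counts (17612434.91 and 13477976.98). Counts under 3 were raised to 3 in ratios. Counts were rounded for a two-sided exact binomial test with Clopper-Pearson intervals on the 12431 genes whose counts over both libraries reached 10, with Benjamini-Hochberg adjustment. With 1 library per genotype, quasi-likelihood and DESeq2 tests were not run, for want of residual degrees of freedom. The alternatives were edgeR TMM and DESeq2 scaling, an added count of 1, other filters and ratio limits, FPKM ratios, and the exact test of edgeR with an assumed coefficient of variation (0.1 or 0.2). Every tested member of the families was named. In other lists, the genes called, or the 4 with the lowest p where more were called, and the defining markers were named. Of 26 carriers and 34 sensing genes listed by name, those under other symbols in the table were not used. Members and lists were chosen with earlier results of these data known. Some genes are not reported here by name. The scripts were checked on simulated data. Positions and transcripts come from GENCODE for GRCm38, and promoters from RefSeq. Software was scipy 1.17.1 in Python 3.11.15, and edgeR 4.0.16 and DESeq2 1.42.0 in R 4.3.3.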

Additional observations from a re-analysis of the deposited data

How the results depend on the processing

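With 1 library per genotype, no replicate could be left out. No paired analysis was possible because each genotype had 1 library, which leaves a single pair. The assumed variation between cultures ended every call of a transporter gene. With a coefficient of variation of 0.1, edgeR's exact test left 41 of all genes higher and 20 lower, and 0 transporter genes in either direction, where 2 were higher and 1 lower at an unadjusted p under 0.05. With 0.2 it left 3 and 1 of all genes and 0 transporter genes, where 1 (*Slc3a1*) was higher and 0 lower at an unadjusted p under 0.05. A 2-fold limit left 143 of all genes higher and 49 lower, with 0 transporter genes lower and 2 higher. A 4-fold limit left 31 and 5, with 1 transporter gene higher and 0 lower. Asking for 10 counts in each library left 1 transporter gene called higher, because *Slc3a1* was not tested.

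The following ratios changed sign, none of them past the test: *Slc3a2* was -0.015 with TMM and -0.012 with DESeq2 scaling, and by FPKM, with 0.01 added, *Slc1a2* was 1.97 and *Slc36a4* was 0.0084. Under TMM and DESeq2 scaling the median of the 32 transporter genes was 0.06 and 0.07, and that of all genes -0.01. With DESeq2 scaling, 1971 of all genes were higher and 2426 lower beyond counting error, near the TMM counts, while 9 transporter genes were higher and 3 lower under both. No filter and an added count of 1 changed no transporter call. Depth limits genes such as *Slc3a1* and *Slc7a7*, with under 30 counts in each library.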

Other observations

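The deposited counts and FPKM values imply a gene length, which for most genes is alike in both libraries. For the 21 transporter genes with at least 100 counts, the ratio of the implied length in the control to that in *Myl3*-KO ran from 0.938 to 1.05. Over all genes, 34 of 10485 with at least 100 counts (0.324%) and 99 of 1936 below that (5.11%) had implied lengths more than 1.5-fold apart. Among the transporter genes these were *Slc1a2* and *Slc7a4*.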
